A study of Homo sapiens with 2 samples.

Results

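The 40 cyclin, cyclin-dependent kinase (CDK) and CDK inhibitor genes described here were those whose symbol begins CCNA to CCNL or CCNT and ends in a number, reads CDK and a number, or reads CDKN, a number and a letter from A to D. They were taken from the 22465 genes that had their own probe set. MDA-MB-231, an established triple-negative breast cancer line, was profiled with 1 array for each of 2 stable derivatives. The control derivative carried the pLKO.1 vector and was titled shNC, so it may also have carried a hairpin. The other, genotype SREBP1 KD, carried pLKO.1 with a short hairpin RNA against SREBP1, the transcription factor of fatty acid synthesis encoded by SREBF1. Both were grown in high-glucose DMEM with serum, and the labels do not say whether either derivative was 1 clone or a pool. No label says how many cultures were sampled.

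Cyclins are the regulatory subunits that switch on CDKs. Cyclin D with CDK4 and CDK6, and cyclin E with CDK2, release E2F transcription factors from the retinoblastoma protein and drive entry into S phase, while cyclins A and B with CDK2 and CDK1 carry the cell through S phase and mitosis. A separate set of transcriptional cyclins and CDKs phosphorylates RNA polymerase II, the Mediator complex or splicing factors. The CIP/KIP inhibitors bind cyclin-CDK complexes, and the INK4 inhibitors bind CDK4 and CDK6.

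The 2 arrays were compared as RMA log2 signals, and the difference is always the SREBP1 KD array minus the control array. A single array per group leaves no replicate spread, so nothing could be tested and each difference describes only these 2 arrays. An expression floor of 3.21 log2 units was set from olfactory receptor genes, and 15697 genes, 13123 of them protein-coding, were above it. SREBF1 read 5.13 in the control and 5.29 in the SREBP1 KD cells, so no loss of the targeted RNA was measured and directions refer to the labels. Of the markers of the line, all 6 (VIM, CD44, AXL, CAV1, MSN and ZEB1) were above the floor, while ESR1 and PGR, the hormone receptors that this line lacks, were under it on both arrays. The other 7 of 9 measured luminal and epithelial markers were above it (KRT8, KRT18, KRT19, EPCAM, GATA3, FOXA1 and CDH1). So were 3 of 5 measured fibroblast markers (COL1A1, COL1A2 and PDGFRB) and 3 of 5 endothelial ones (CDH5, VWF and KDR). Passing the floor thus did not separate these marker lists. Of 7 measured leukocyte markers 4 were above the floor (CD68, CD14, CD3E and ITGAM), while PTPRC, the defining one, was under it on both arrays. Highly expressed genes tended upward on the SREBP1 KD array. The median difference of protein-coding genes was 0.074 log2 units above a mean signal of 8 and 0 between 5 and 6, and for this reason each value was also computed after a signal-dependent curve had been subtracted.

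The 40 genes had 41 probe sets, since CDK12 had 2, and 37 genes were above the floor. CCNB3 (2.66 on both arrays), CCNI2 (2.84 and 2.78) and CDK15 (3.19 and 3.14) were under it, as was the second CDK12 probe set (3.08 and 2.91). CDK15 lay just under the floor, and CCND2 (3.30 and 3.47) and CDKN2B (3.32 on both) just above it. Of the 37, 20 were higher on the SREBP1 KD array, 14 were lower and 3 had equal values, with a median difference of 0.030 log2 units that turned to -0.011 once the curve was subtracted. Among protein-coding genes above the floor, 52.4% were higher, 40.6% lower and 6.96% equal, and the median was 0.013. By sign and by median the 37 genes together were thus close to the background. Larger differences were counted from 0.32 log2 units, a ratio of 5 to 4, and on the higher side 5 genes (13.5%) reached this size, against 3.22% of protein-coding genes. On the lower side 1 gene did so (2.70%), against 4.31%. At 1.5-fold there was 1 higher gene and none lower, where the background was 0.274% and 0.747%.

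**Figure D1:**
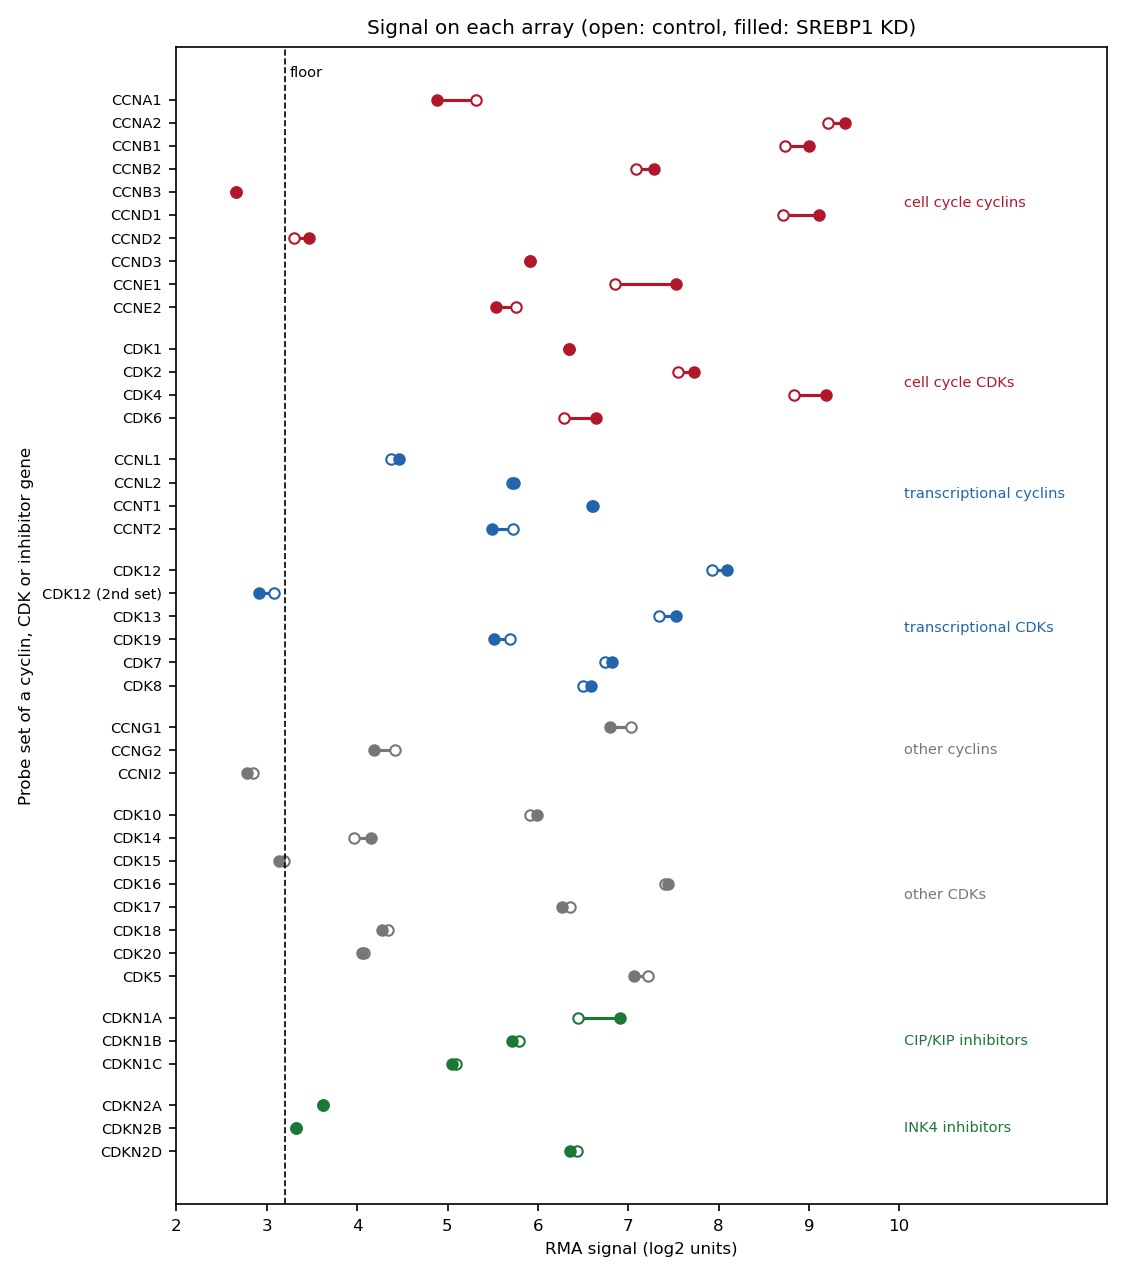
RMA signal (log2 units, horizontal axis) of each of the 41 probe sets on the control array (open circles) and on the SREBP1 KD array (filled circles), by role, with the expression floor of 3.21 as a dashed line. The longest lines are those of CCNE1, CDKN1A, CCNA1 and CCND1, and levels of different probe sets are not comparable with each other.

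The genes at least 0.32 log2 units apart were CCNE1, CDKN1A, CCND1, CDK4 and CDK6 on the higher side and CCNA1 on the lower. All but CDKN1A belong to the machinery of the cell cycle itself. RefSeq sequences of the 250 bases before the transcription start are shown for CCNE1 and CDKN1A, the members with the largest positive differences, for CDK4, whose window holds repeated E-boxes, for CCNB2, which holds the CCAAT and CHR pattern of mitotic genes, and for CCNG1, the member with a sterol response element. They are given on the gene's strand, 5′ to 3′, in build GRCh38.p14: CCNE1 at chr19:29811741-29811990 (plus strand), CDKN1A at chr6:36678464-36678713 (plus), CDK4 at chr12:57752311-57752560 (minus), CCNB2 at chr15:59104896-59105145 (plus) and CCNG1 at chr5:163437321-163437570 (plus). Capitals mark matches, on either strand, to the GC box GGGCGG, the CCAAT box, the E-box CACGTG, the cell cycle homology region CHR (TTTGAA or TTCGAA) and the sterol response element TCACNCCAC.
CCNE1: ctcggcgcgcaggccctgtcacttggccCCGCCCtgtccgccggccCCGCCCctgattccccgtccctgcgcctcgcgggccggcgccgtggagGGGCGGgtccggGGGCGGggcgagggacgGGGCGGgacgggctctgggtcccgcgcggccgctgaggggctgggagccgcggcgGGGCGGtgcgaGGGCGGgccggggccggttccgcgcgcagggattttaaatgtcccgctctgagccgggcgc
CDKN1A: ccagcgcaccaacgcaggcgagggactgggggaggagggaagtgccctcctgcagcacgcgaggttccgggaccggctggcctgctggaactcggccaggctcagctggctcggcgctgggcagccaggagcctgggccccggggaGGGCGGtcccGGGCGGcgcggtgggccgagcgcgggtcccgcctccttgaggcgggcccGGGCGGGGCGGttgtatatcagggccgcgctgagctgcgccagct
CDK4: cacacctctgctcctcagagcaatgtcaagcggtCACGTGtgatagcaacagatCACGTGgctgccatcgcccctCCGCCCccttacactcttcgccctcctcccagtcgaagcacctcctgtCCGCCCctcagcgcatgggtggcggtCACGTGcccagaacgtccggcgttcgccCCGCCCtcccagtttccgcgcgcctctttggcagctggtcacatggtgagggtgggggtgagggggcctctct
CCNB2: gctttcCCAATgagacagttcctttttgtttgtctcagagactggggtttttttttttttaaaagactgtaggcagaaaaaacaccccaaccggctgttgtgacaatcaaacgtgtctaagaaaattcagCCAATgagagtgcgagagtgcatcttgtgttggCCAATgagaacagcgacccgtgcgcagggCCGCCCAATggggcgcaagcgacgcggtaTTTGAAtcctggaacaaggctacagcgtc
CCNG1: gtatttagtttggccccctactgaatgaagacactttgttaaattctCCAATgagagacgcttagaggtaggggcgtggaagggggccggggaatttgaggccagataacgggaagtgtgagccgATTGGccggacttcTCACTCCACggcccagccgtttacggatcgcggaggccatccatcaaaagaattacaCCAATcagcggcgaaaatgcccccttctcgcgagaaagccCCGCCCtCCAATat

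The G1 cyclins and their kinases held most of the larger differences. CCNE1, which encodes cyclin E1, the activator of CDK2 at the start of S phase, had a signal of 6.86 in the control and 7.53 in the SREBP1 KD cells. That difference of 0.67, or 1.59-fold, ranked 15 from the top of 13123 protein-coding genes and exceeded those of all 500 genes nearest in signal, whose SD was 0.21. CCND1, encoding cyclin D1, read 8.72 and 9.11, a 1.32-fold higher value at percentile 98.0 of the 500 genes nearest to it in signal, the comparison used for each percentile and SD below. Its kinase partner CDK4 read 8.83 and 9.19 (1.28-fold higher, percentile 97.0). CDK6, the other partner of D cyclins, read 6.29 and 6.64 (1.27-fold higher, percentile 96.6). CDK4 and CDK6 thus had nearly the same difference, 0.351 and 0.348 log2 units. After subtraction of the curve CDK4 stood at 0.29, under the threshold, and CCNE1, CCND1 and CDK6 at 0.63, 0.33 and 0.33.

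The remaining G1 cyclins went different ways. CCND3, the cyclin D prominent in lymphoid cells, read 5.91 on both arrays, with a difference of -0.0034. CCND2, the remaining D cyclin, read 3.30 and 3.47, a difference of 0.17 close to the floor, at percentile 86.6 and about as large as the SD of 0.16. CCNE2, the paralogue of CCNE1, read 5.76 in the control and 5.54 in the SREBP1 KD cells, a difference of -0.22 at percentile 10.6. CDK2, the kinase shared by cyclins E and A, read 7.55 and 7.73, a difference of 0.18 that was smaller than the SD of 0.20 among genes of its level.

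Among cyclins of S phase and mitosis, CCNA2, CCNB1 and CCNB2 were all slightly higher. CCNB1, encoding the main mitotic cyclin, read 8.73 and 8.999, or 1.20-fold higher at percentile 90.2. CCNA2, the cyclin A of dividing somatic cells, read 9.21 and 9.40 (difference 0.19), and CCNB2 read 7.09 and 7.28 (0.20). Both differences were smaller than the SD of genes of their level, 0.20 and 0.21. CDK1, the mitotic kinase that these cyclins activate, had exactly the same value on both arrays, 6.35. Exactly equal values occurred in 18 of the 500 genes nearest to CDK1 in signal (3.60%). CCNA1, the cyclin A known from the germ line and expressed in some tumours, went the other way. It read 5.32 in the control and 4.88 in the SREBP1 KD cells, 1.35-fold lower, at percentile 3.20 and rank 245 from the bottom of protein-coding genes.

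Taking the A, B, D and E cyclins and their kinases as 1 group, 9 of the 13 above the floor were higher, 3 lower and 1 equal. The median difference was 0.19 log2 units, and 4 genes (30.8%) were higher by at least 0.32, against 3.22% of protein-coding genes. CCNA1 alone (7.69%) was lower by that much, against 4.31%. With the curve subtracted, CDK4 no longer reached 0.32. Of the 13, 7 had a mean signal above 7, where differences leaned upward in general, and 6 lay lower, from CCND2 at 3.38 to CDK6 at 6.46. Of the 1841 protein-coding genes above the median signal of the 13, 65.0% were higher and the median was 0.064. Of these, 5.98% were higher and 3.91% lower by at least 0.32. That comparison does not match the members below this median in signal. Subtracting the curve left a median of 0.15 for the group, with 9 higher and 4 lower. For all protein-coding genes above the floor it left a median of -0.0031, with 6374 higher and 6749 lower. In bulk RNA, a different share of cells in a phase of the cycle and a different amount of RNA per cell cannot be told apart.

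**Figure D2:**
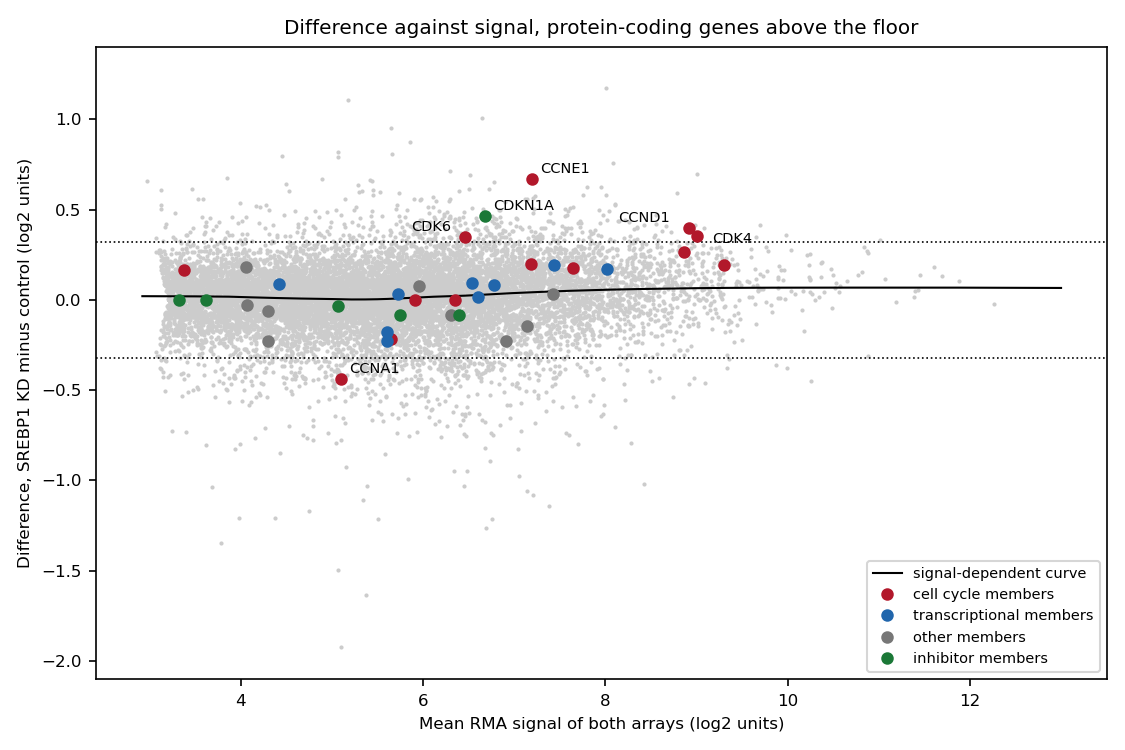
Difference between the arrays (log2 units, vertical axis) against mean signal (log2 units, horizontal axis) for protein-coding genes above the floor (grey) and for the 37 cyclin, CDK and inhibitor genes (coloured by class); the dotted lines mark 0.32 log2 units either way and the black line is the signal-dependent curve. CCNE1, CDKN1A, CCND1, CDK4 and CDK6 lie above the upper dotted line and CCNA1 below the lower one.

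Of the 9 transcriptional members above the floor, 7 were higher (77.8%) and 2 lower, where 52.4% of protein-coding genes were higher. Their median was 0.082 log2 units, or 0.050 with the curve subtracted. None reached 0.32 log2 units in either direction, which for 9 genes is close to the background shares of 3.22% and 4.31%. CDK12 and CDK13, which phosphorylate the tail of RNA polymerase II during elongation, read 7.93 and 8.10, and 7.34 and 7.53, differences of 0.17 and 0.19. CDK7, the kinase of TFIIH that also activates other CDKs, read 6.74 and 6.82. CDK8, a Mediator kinase, read 6.49 and 6.59, whereas its paralogue CDK19 read 5.69 and 5.51, a difference of -0.18. Each of these differences was smaller than the SD of its neighbours in signal. CDK9, the catalytic subunit of the elongation factor P-TEFb, shared its probe set with 2 microRNA genes and so was not among the 40. That probe set read 7.72 and 7.80.

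The cyclin partners of CDK9 were on either side of 0. CCNT1 read 6.59 and 6.61, a difference of 0.016 that turned to -0.011 once the curve was subtracted. CCNT2 read 5.72 in the control and 5.49 in the SREBP1 KD cells, a difference of -0.23 and the lowest among transcriptional members, at percentile 10.8. CCNL1 and CCNL2, cyclins of the splicing-linked kinase CDK11, differed by 0.088 and 0.030. The median of the cell cycle group exceeded that of the transcriptional group by 0.11 log2 units. Across the alternatives examined that gap ran from 0.084 to 0.16, and with 1 array per group it could not be tested. The 0.084 came from counting the inhibitors with the cell cycle members, which was not planned beforehand. The 0.16 came from averaging CDK12 with its probe set under the floor. Differences within the cell cycle and transcriptional groups had SDs of 0.28 and 0.14, both larger than the gap of 0.11.

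Of the 6 CDK inhibitors above the floor, only CDKN1A differed by more than the SD of genes of its level. CDKN1A encodes p21, a CIP/KIP inhibitor and textbook target of p53, and read 6.45 in the control and 6.91 in the SREBP1 KD cells. It was 1.38-fold higher, at percentile 99.2 and rank 105 from the top of protein-coding genes. CDKN1B (p27) read 5.79 and 5.71 and CDKN1C (p57) 5.09 and 5.05, both lower by less than the SD of genes of their level. CDKN2A, which encodes the INK4 inhibitor p16 and is known to be deleted in MDA-MB-231, read 3.62 on both arrays. CDKN2B (p15) read 3.32 on both, and of the 358 olfactory receptor genes 26 also passed the floor. CDKN2D (p19) read 6.44 and 6.36. Over the 6 inhibitors above the floor 1 was higher, 3 were lower and 2 were equal, with a median of -0.018. The shares among protein-coding genes above the floor were 52.4% higher, 40.6% lower and 6.96% equal. The 2 equal inhibitors were CDKN2A and CDKN2B, which had the lowest signals of the 6, near the floor of 3.21. With CDKN2A known to be deleted in this line, its equal value may not reflect expression of the gene.

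Among cyclins and CDKs of other functions, 3 of 9 were higher and 6 lower (66.7%), against 40.6% of protein-coding genes that were lower. The median was -0.063, or -0.074 with the curve subtracted, and none reached 0.32, against 3.22% and 4.31%. CCNG1, a p53 target, read 7.03 in the control and 6.80 in the SREBP1 KD cells. CCNG2, a cyclin linked to cell cycle arrest, read 4.42 and 4.19. Each was lower by 0.23 log2 units, at percentiles 7.20 and 6.80, and thus by more than the SD of genes of like signal (0.19 and 0.16). CDK5, known for its role in neurons, read 7.21 and 7.07, a difference of -0.15. CDK14, a membrane-associated kinase activated by cyclin Y, read 3.97 and 4.15, a difference of 0.18 and the highest in this group. CDK10, the partner of cyclin Q, the PCTAIRE kinases CDK16, CDK17 and CDK18, and CDK20 lay between -0.083 and 0.078.

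Related genes did not all share a sign. Of 12 pairs of close relatives, chosen after their values had been seen, 7 had differences of opposite sign, or 5 with the curve subtracted, when CCNT1 with CCNT2 and CDK16 with CDK17 came to share a sign. With 52.4% of protein-coding genes higher and 40.6% lower, opposite signs are frequent in unrelated pairs too, and their share was not computed. CCND1 was paired with CCND3, whose difference was -0.0034, and not with CCND2, which was higher. The gap was widest for CCNE1 and CCNE2, at 0.89 log2 units. CCNA2 and CCNA1 were 0.63 apart and CDKN1A and CDKN1B 0.55. At the other end, CDK4 and CDK6 were 0.0033 apart, and CCNG1 and CCNG2 were closer still.

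**Figure D3:**
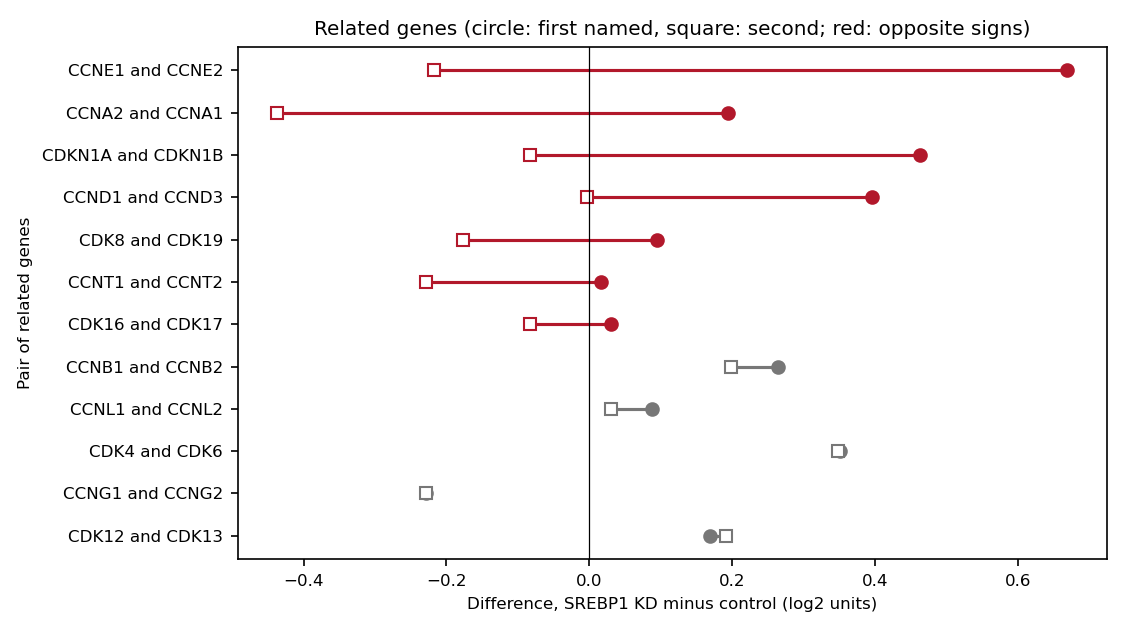
Difference between the arrays (log2 units, horizontal axis) for 12 pairs of related genes, with the first named as a filled circle and the second as an open square, and pairs of opposite sign in red. CCNE1 and CCNE2 are farthest apart, while CDK4 with CDK6 and CCNG1 with CCNG2 nearly coincide.

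In the promoter windows, 35 of the 40 genes were searched, the others being CCND1, CCND2, CCNE2, CDK2 and CDKN1C. The GC box was present in 29 of the 35 (82.9%), against 56.0% of 15843 protein-coding promoters of the same length. CCNE1 held 7, CDKN1A 4 (of which 2 overlap by a base) and CDK4 3. The E-box, an element bound by MYC and also by SREBP1, was present in 6 of the 35 (17.1%), against 7.84%. These were CDK4, with 3 copies, and CCNB1, CCNG2, CCNT1, CDK7 and CDK8, whose differences ran from -0.23 for CCNG2 to 0.35 for CDK4. The CCAAT box stood in 14 of 35 (40.0%), against 34.5%, with 4 copies in CCNB2 (1 overlapping a GC box) and 4 in CCNG1. The CHR element was found in CCNB2, CDK1 and CDK19 (8.57%, against 11.9%). The sterol response element was found only in CCNG1, 103 to 111 bases before the start (1 of 35, 2.86%, against 0.884% of promoters). CCNG1 was lower on the SREBP1 KD array by 0.23, and so was CCNG2, whose window held no such match. A link between the element and the difference was not tested. The E2F element, searched as TTTCCCGC, TTTGGCGC, TTTCGCGC or TTTGCCGC, was found in CDK10 and CDK19 (5.71%, against 3.72%), and the TATA box TATAAA in CDK15 (2.86%, against 9.23%). A match describes the letters of the window and not binding.

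Genes that act with the cyclins and CDKs were described from 7 lists. In the list of replication licensing and S phase, 13 of 18 genes above the floor were higher (72.2%), 2 lower and 3 equal. Of all protein-coding genes 52.4% were higher, and of those with a mean signal of 7 to 8, where the list's median signal lay, 61.6%. The list's median difference was 0.18 log2 units, or 0.13 with the curve subtracted. MCM10, a replication initiation factor, read 7.22 and 7.64 (1.34-fold higher). RRM2, a subunit of ribonucleotide reductase, was 1.28-fold higher and RPA1, of the single-strand binding protein, 1.26-fold higher. Higher by at least 0.32 were thus 3 of 18 (16.7%), against 3.22% of protein-coding genes. No member was lower by the threshold, which for 18 genes is close to the background share of 4.31%. CDC6, which loads the MCM helicase, had the lowest value, -0.318, and was named after its value was seen. PCNA and MCM5 had equal values on both arrays.

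The RB, E2F and DREAM list had a median of 0 over 20 genes, with 9 higher (45.0%), 9 lower (45.0%) and 2 equal (10.0%). Of protein-coding genes 52.4% were higher, 40.6% lower and 6.96% equal. With the curve subtracted the median was -0.034, with 7 higher and 13 lower, where of all protein-coding genes 6374 were higher and 6749 lower. Before subtraction, 3 of 20 (15.0%) were higher by at least 0.32, against 3.22% of protein-coding genes. None was lower by that much, against 4.31%. MYBL2, the MYB factor of late cell cycle genes, read 7.30 and 7.81 (1.42-fold higher), E2F4, the main E2F of the DREAM repressor complex, 7.32 and 7.78 (1.38-fold) and E2F3 5.94 and 6.28 (1.26-fold). The pocket proteins, named after their values were seen, were lower, by 0.19 for RB1, 0.26 for RBL1 and 0.15 for RBL2. E2F1 read 6.91 on both arrays. In the list of CDK activation and cyclin turnover, 11 of 17 were higher (64.7%, against 52.4% of protein-coding genes) and 6 lower. The median was 0.12, or 0.058 with the curve subtracted. CDC20, an activator of the anaphase-promoting complex, was the member beyond 0.32, at 8.21 and 8.63 (1.33-fold higher). That was 5.88% of the list, against 3.22% of protein-coding genes, and none was lower by 0.32, against 4.31%. SKP2, which targets p27 for destruction, was higher by 0.31 and was named after its value was seen.

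Mitotic kinases and spindle genes went both ways, 9 of 17 higher (52.9%, against 52.4% of protein-coding genes) and 8 lower. Their median was 0.068 (0.010 with the curve subtracted). AURKB, a mitotic kinase, was 1.36-fold higher, while the kinetochore genes CENPF and CENPE were 1.33-fold and 1.26-fold lower. These made 5.88% of the list higher and 11.8% lower by at least 0.32, against 3.22% and 4.31% of protein-coding genes. MKI67, the proliferation marker, read 9.86 and 9.79. Among the partners of P-TEFb, TFIIH and the Mediator kinase, 9 of 15 were higher (60.0%, against 52.4%) and 5 lower. The median was 0.097, or 0.059 with the curve subtracted. HEXIM1, which holds P-TEFb inactive together with 7SK RNA, was the member beyond 0.32 (6.67% lower, against 4.31% of protein-coding genes). It read 6.82 in the control and 6.19 in the SREBP1 KD cells, 1.54-fold lower, while its paralogue HEXIM2 read 4.72 and 4.81.

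The p53 and checkpoint list had 4 genes higher (40.0%), 4 lower (40.0%) and 2 equal (20.0%) of 10 above the floor. Of protein-coding genes 52.4% were higher, 40.6% lower and 6.96% equal. The list's median was 0 (-0.0026 with the curve subtracted). No member lay beyond 0.32, close to the background shares of 3.22% higher and 4.31% lower for a list this short. Next to CDKN1A, the p53 targets MDM2 and GADD45A read 6.62 and 6.70, and 6.41 and 6.62, and RRM2B was lower by 0.26, all 3 named after their values were seen. Relatives of the cyclins and CDKs that lack a number in their symbol, or otherwise fell outside the rule, had a median of 0.035 over 20 genes, or 0.0014 with the curve subtracted, and none beyond 0.32, again a count close to those shares. The highest of them was CCNF, a cyclin that acts in a ubiquitin ligase, at 0.27, and the lowest was CCNO at -0.23. CCNK, the cyclin of CDK12 and CDK13, was higher by 0.26. CCNC, the cyclin of CDK8 and CDK19, differed by -0.081 and CCNH, the cyclin of CDK7, by -0.040.

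**Figure D4:**
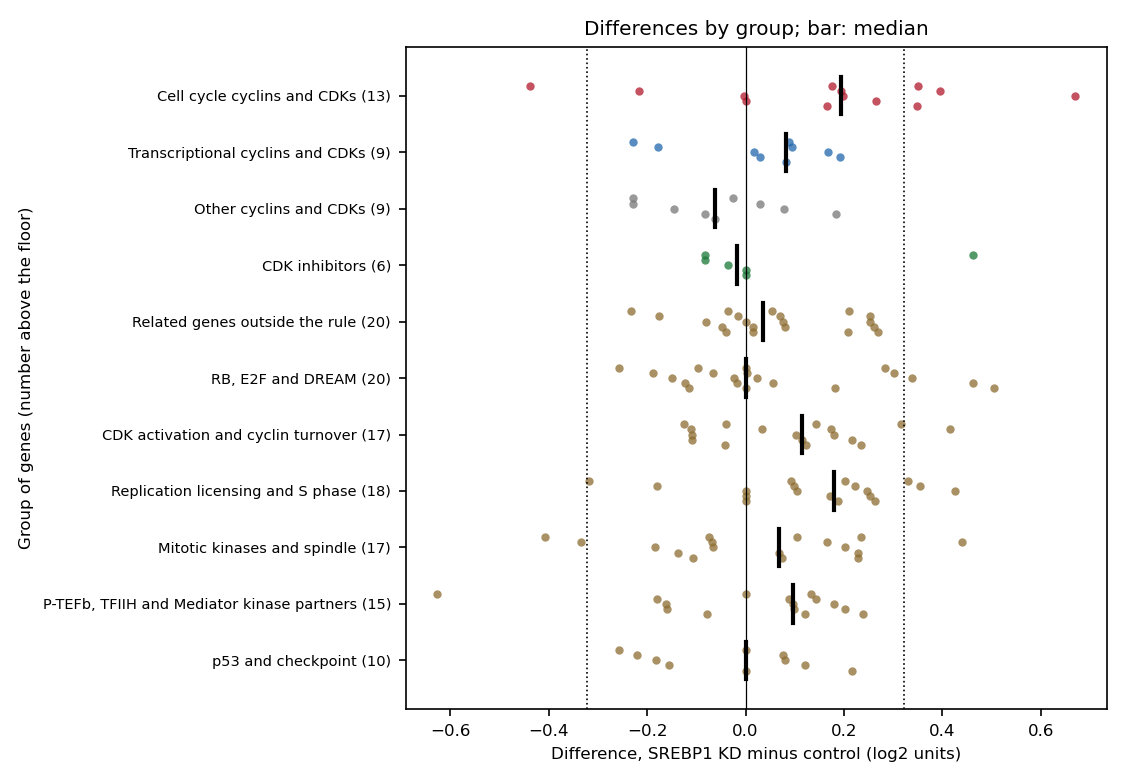
Difference between the arrays (log2 units, horizontal axis) of each gene above the floor, by class of member (coloured) and by list of related genes (brown), with the number of genes in parentheses, the median as a bar and 0.32 log2 units as dotted lines. The median is highest for the cell cycle cyclins and CDKs, 0.19, and for replication licensing and S phase, 0.18, and lowest for the other cyclins and CDKs, -0.063.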

How the data were processed

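Values are log2 signals per probe set as deposited. Per the submitters' processing notes, the authors used RMA and Affymetrix Expression Console. Software versions and the build were not given in those notes. RMA fold changes are commonly compressed. Arrays have no read depth, and having 1 per group limits the precision.

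The genotype label gave the groups. Of 70523 probe sets, 23781 had 1 gene name in GEO's platform annotation, and the set with the highest mean signal stood for a gene. Symbols and gene types came from RefSeq (GRCh38.p14). The floor was the 95th percentile of mean signal in 358 olfactory receptor genes. A gene passed when its higher value exceeded it. Percentiles and SDs refer to the 500 passing genes nearest in mean signal. Thresholds were 0.32 log2 units and 1.5-fold. All members were named, with up to 3 genes per list and direction beyond 0.32. The members and lists were chosen with earlier results of these data known. CDKN2C was not analysed here, and CDK9 and CDK3 shared probe sets with other genes.

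Alternatives removed the median difference or a loess curve (fraction 0.3), changed the floor, averaged probe sets, moved genes between classes, included shared probe sets or used 1.5-fold. The code was tested on simulated data. Tools were Python 3.11.15, statsmodels 0.14.6, numpy 2.4.6, matplotlib 3.10.9 and pandas 2.3.3.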

Additional observations from a re-analysis of the deposited data

How the results depend on the processing

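With 1 array per group, all values describe these 2 arrays, and RNA levels say nothing of protein or kinase activity. No paired analysis was possible because each group had 1 array and no test was made. With the signal-dependent curve subtracted, the median of all members was -0.011. With probe sets of a gene averaged, the median of transcriptional members was 0.030, since the second CDK12 probe set, under the floor, brought CDK12 to -0.0020. At 1.5-fold, 1 member was higher (CCNE1) and 0 lower, in place of 5 and 1 at 0.32 log2 units. The cell cycle median ran from 0.15 to 0.20 over 9 alternatives, of which 2 were added after seeing the data, and the SREBF1 difference from 0.14 to 0.15 over 6. Of 34 members with unequal values, 31 kept their sign in every alternative tried. Most alternatives could not turn a sign. Changing the floor leaves a gene's difference as it was, that of SREBF1 included. Averaging could change only CDK12, and removing the median shifted each value by 0.012. The 3 that turned were CCNT1 and CDK16 with the curve subtracted and CDK12 with probe sets averaged.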
